A study of Rattus norvegicus with 2 samples.

Results

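The genes described here encode the enzymes of fatty acid oxidation, the fatty acid binding proteins and the peroxins that build peroxisomes, in rat heart cell cultures that the labels call neonatal ventricular cardiomyocytes. They were taken by symbol from the deposited gene table, and 63 of its 16846 gene symbols belong to them. Strand-specific poly(A) RNA-seq gave 1 library per group. The AntiMir library came from cells transduced for 7 days with adeno-associated virus (AAV2/9) that encodes hairpins against miR-99/100 and let-7. The Ctrl library came from cells whose treatment is described both as empty AAV and as mock transduction. Both groups came from ventricles taken at postnatal day 0 and from cells that stayed unattached during 2 h on plastic, with a stated purity above 90%. No strain, sex or number of animals is given in the sources used here, and with 1 library per group no difference has a replicate check.

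Fatty acids are carried in the cell by Fabp proteins, joined to coenzyme A by Acsl enzymes, and moved into mitochondria as carnitine esters by Cpt1, the inner membrane carrier and Cpt2. Each turn of beta-oxidation then uses an acyl-CoA dehydrogenase, a hydratase, a hydroxyacyl-CoA dehydrogenase and a thiolase, and electrons from the first of these reach the respiratory chain through the electron transfer flavoprotein. Peroxisomes shorten very long and branched chains, with an oxidase in place of the dehydrogenase, and rely on peroxins to import their enzymes. The adult heart takes much of its energy from this pathway, and its genes are known to become more active after birth.

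The inhibitors were directed at miRNAs that fall into a pair of seed families. The mature sequences, from RefSeq (build GRCr8), are shown because they are the molecules that the treatment was meant to block; capitals mark the seed, bases 2 to 8, which is the same within each family.
rno-let-7a-5p: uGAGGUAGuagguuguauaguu
rno-let-7c-5p: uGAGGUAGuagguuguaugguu
rno-miR-99b-5p: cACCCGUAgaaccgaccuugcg
rno-miR-100-5p: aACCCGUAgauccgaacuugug
Poly(A) reads do not measure mature miRNAs, so the extent of the knockdown cannot be read from these libraries.

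Taken as a set, the genes stood at the same level in both libraries, and single members differed in both directions. They summed to 2226 reads per 1000000 reads on genes (RPM) in the AntiMir library and 2222 RPM in the Ctrl library, so that AntiMir over Ctrl was 1.002 (95% counting interval 0.987 to 1.02). The libraries held 14815846 (AntiMir) and 16031780 (Ctrl) reads on genes, and all counting intervals given are exact Clopper-Pearson intervals that cover counting error only. Of the 63 members, 53 had a mean of at least 1 RPM, 2 lay below that floor and 8 had no reads in either library. Among the 53, the median log2 ratio was −0.03, against 0.03 over all 10365 genes above the floor, where log2 ratios are log2((AntiMir + 0.1)/(Ctrl + 0.1)) of RPM values.

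At least 1.5-fold higher in the AntiMir library were 6 members, among them Acad10, Cpt1b, Pex11a, Pex3 and Pex7, and at least 1.5-fold lower were 5, among them Decr1, Ehhadh, Pex16 and Pex6. These 11 make up 20.8% of the 53, against 19.4% of all genes above the floor past that fold in either direction, 10.8% higher and 8.56% lower, so the share is near the background. Such ratios were most frequent at low levels: between 1 and 10 RPM 6 of 8 members passed 1.5-fold, against 53.2% of all genes there. Between 10 and 100 RPM 5 of 41 did, against 11.4%, and at 100 RPM or above 0 of 4, against 0.948%. Each ratio was therefore also set beside the central 95% of ratios of the 500 genes nearest in level, called the like-level range below. Outside it lay 4 members, 7.55% of the 53 against 5.33% of all genes above the floor, with 3 on the high side, among them Cpt1a and Hadh, and Pex6 on the low side. At 2-fold, 3 members were higher (4.85% of all genes) and 0 lower (3.56%, and 8.41% either way). Counting error alone set apart far more: the interval left out 1 for 34 members, against 61.7% of all genes, and a count test between the libraries, which says nothing of the conditions, called 32, or 60.4%, against 58.1%.

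**Figure D1:**
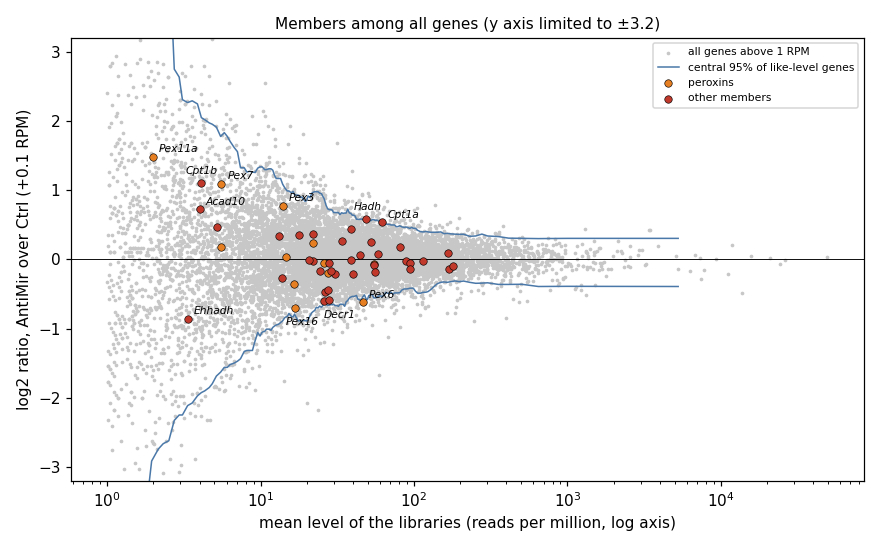
Log2 ratio, AntiMir over Ctrl, against the mean level in RPM on a log axis; grey points are genes above 1 RPM, coloured points 49 of the members, and blue lines the like-level range. The y axis leaves out genes beyond its limits. Cpt1a and Hadh sit just above the upper line and Pex6 just below the lower one, and the widest ratios among members belong to scarce genes such as Pex11a.

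The cell type label was checked against markers, since these genes differ in level between cell types. Cardiomyocyte markers were scarce, with 16 of 17 listed genes in the table, 9 above the floor and a sum of 291 RPM in the AntiMir library against 253 RPM in the Ctrl library (ratio 1.15, counting interval 1.10 to 1.20). The atrial myosin light chain Myl7 and the muscle creatine kinase Ckm had no reads in either library, and Myh6 had 23 reads in the AntiMir library and 0 in the Ctrl library, while Tnnt2 stood at 161 and 147 RPM. The list did not move one way: Ldb3, Myh7 and Nppa were at least 1.5-fold higher in the AntiMir library, while Myl2 (5 and 30 reads) and Tnnc1 (33 and 59 reads) were at least 1.5-fold lower. All of these lay at 1 to 10 RPM, where 53.2% of all genes passed 1.5-fold, and inside their like-level ranges. The 10 fibroblast markers summed to 127285 RPM (AntiMir) and 127141 RPM (Ctrl), and 9 macrophage markers to 7404 and 6716 RPM (ratio 1.10, interval 1.09 to 1.11). The direction of the macrophage sum rested on Lyz2, left out after the data were seen: the other 8 markers summed to 3466 RPM in the AntiMir library and 3779 RPM in the Ctrl library (ratio 0.917, 0.906 to 0.928), 4 of them lower, with C1qa at 0.673 below its like-level range. The 4 smooth muscle markers summed to 986 and 977 RPM and the 7 endothelial ones to 19.4 and 18.3 RPM, while the 2 erythroid genes in the table had no reads. Adipocyte markers Adipoq, Plin1, Cidec, Lep and Retn had no reads, and the list's sum of 63.8 and 61.1 RPM came from Adipor2 and Cfd. In bulk RNA, fewer cells of a type and less RNA per cell cannot be told apart, so the levels below are those of mixed cultures.

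**Figure D2:**
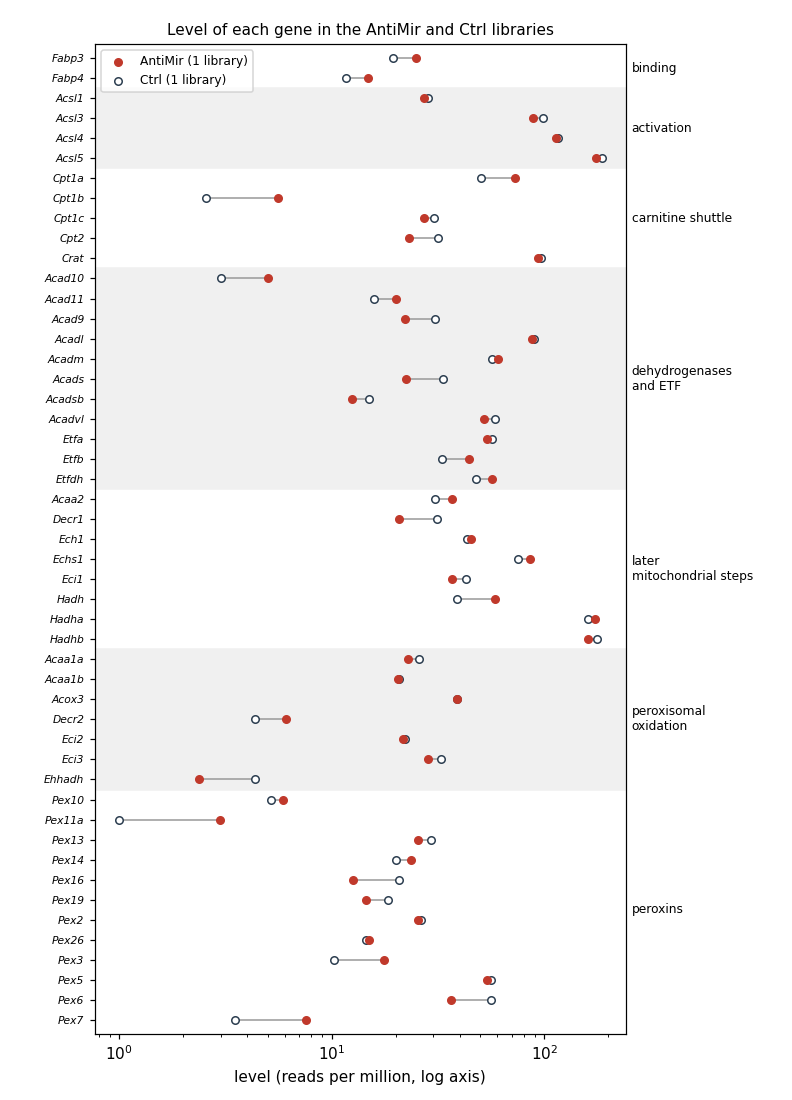
Level of 49 of the 53 members above 1 RPM in the AntiMir (filled) and Ctrl (open) libraries, in RPM on a log axis, by role; each point is 1 library. Most pairs of points nearly touch, and gaps past 1.5-fold include those of Acad10, Cpt1b, Ehhadh, Pex11a, Pex3, Pex7 and Pex16.

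Of the 8 fatty acid binding protein genes, Fabp3 and Fabp4 carried nearly all reads. Fabp3, the form of heart and skeletal muscle, had 368 reads (24.8 RPM) in the AntiMir library and 310 (19.3 RPM) in the Ctrl library, a ratio of 1.28 (counting interval 1.10 to 1.499). Fabp4, known from adipocytes, macrophages and capillary endothelium, had 219 and 187 reads (14.8 and 11.7 RPM), a ratio of 1.27 (1.04 to 1.55). Both were higher in the AntiMir library by more than counting error, though genes of like level spread further, over log2 ratios of −0.75 to 0.97 for Fabp3 and −0.89 to 1.17 for Fabp4. Per kilobase the order of Fabp3 and Fabp4 was the same in each library, with levels 1.45 times (AntiMir) and 1.43 times (Ctrl) that of Fabp4. The brain form Fabp7 had 5 and 6 reads, too few to show a difference. Fabp1 of liver, Fabp2 of intestine, the bile acid carrier Fabp6, Fabp9 and Fabp12 had no reads in either library, and a count of 0 allows up to 0.202 RPM (AntiMir) and 0.187 RPM (Ctrl). Fabp5 is not among the deposited gene symbols, so its reads could not be counted. The marker sums given above stood at 1.15 times for cardiomyocytes, with members in both directions, and for macrophages at 1.10 times with Lyz2 and 0.917 times without it; their part in the Fabp3 and Fabp4 ratios was not tested.

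The fatty acid activating enzymes were the steadiest group. Acsl5, the most abundant, had 174 RPM in the AntiMir library and 186 RPM in the Ctrl library, a ratio of 0.937 (0.888 to 0.988). Acsl4, which prefers arachidonic acid, had 113 and 116 RPM (ratio 0.980, 0.917 to 1.05) and was the highest of the group by log2 ratio at −0.03. Acsl3, tied to lipid droplets, was the lowest at −0.14, with 88.8 and 98.1 RPM (ratio 0.905, 0.841 to 0.975). All 4 expressed members were thus within 1.5-fold and slightly lower, and their summed ratio was 0.943 (0.911 to 0.977). Few genes of their level passed 1.5-fold: 11.4% at 10 to 100 RPM, where Acsl1 and Acsl3 lay. At 100 RPM or above, where Acsl4 and Acsl5 lay, it was 0.948%. Acsl1, the main form of the adult heart, had 27.3 and 28.2 RPM (ratio 0.967, 0.844 to 1.11), and per kilobase it was the lowest of the 4, at 7.49 and 7.75 RPKM (reads per kilobase of transcript per 1000000 reads) against 79.3 and 84.7 RPKM for Acsl5. Acsl6, of brain and muscle, had no reads.

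In the carnitine shuttle the enzymes of the outer and inner membranes differed in opposite directions. Cpt1a, the outer membrane enzyme of most tissues and a step that limits fatty acid entry, had 1078 reads (72.8 RPM) in the AntiMir library and 805 (50.2 RPM) in the Ctrl library. Its ratio was 1.45 (1.32 to 1.59), and its log2 ratio of 0.53 lay just above the like-level range of −0.54 to 0.52. Cpt2, the inner membrane partner that returns the acyl group to coenzyme A, had 343 and 506 reads (23.2 and 31.6 RPM), a ratio of 0.733 (0.638 to 0.843) inside its range. The log2 ratios of Cpt1a and Cpt2 were 0.98 apart, and per kilobase Cpt1a stood at 1.67 times Cpt2 in the AntiMir library against 0.846 times in the Ctrl library.

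Cpt1b (build rn4, chromosome 7, 127737129 to 127746179), the muscle form of the outer membrane enzyme, had 83 reads (5.60 RPM) in the AntiMir library and 41 (2.56 RPM) in the Ctrl library, a ratio of 2.19 (1.49 to 3.27). Its log2 ratio of 1.10 lay well inside the wide like-level range of −1.93 to 2.05 of such scarce genes. Per kilobase it reached only 0.118 (AntiMir) and 0.0781 (Ctrl) of the level of Cpt1a, so the form of most tissues outweighed that of heart muscle in both libraries. The cardiomyocyte markers summed to 291 RPM in the AntiMir library and 253 RPM in the Ctrl library. Of them, 3 were at least 1.5-fold higher and 2, Myl2 (ratio 0.180) and Tnnc1 (0.605), lower. All of these lay at 1 to 10 RPM, where 53.2% of all genes passed that fold. The part of the markers' cells in the Cpt1b ratio was not tested. Cpt1c, a neuronal form of the endoplasmic reticulum, had 27.0 and 30.3 RPM (ratio 0.891, 0.778 to 1.02). Crat, which exchanges short acyl groups on carnitine, was the most abundant of the group by reads, at 93.1 and 96.5 RPM (ratio 0.965, 0.896 to 1.04).

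Among the acyl-CoA dehydrogenases, the long- and medium-chain enzymes differed little. Acadl, of long chains, had 87.5 RPM (AntiMir) and 89.3 RPM (Ctrl), a ratio of 0.979 (0.908 to 1.06). Acadm, of medium chains, had 60.2 and 56.8 RPM (1.06, 0.965 to 1.16). Acadvl, the membrane enzyme of very long chains, had 51.9 and 58.8 RPM, a ratio of 0.883 (0.802 to 0.973). Acads, of short chains, was the lowest of the group: it had 330 reads (22.3 RPM) in the AntiMir library and 535 (33.4 RPM) in the Ctrl library, a ratio of 0.667 (0.580 to 0.767). Its log2 ratio of −0.58 stood just short of 1.5-fold and inside the like-level range of −0.67 to 0.72. Acad9, also needed to assemble respiratory complex I, was next with 326 and 492 reads (ratio 0.717, 0.621 to 0.826). Acadsb, of branched chains, had 12.4 and 15.0 RPM.

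Acad10 and Acad11, less studied relatives of the dehydrogenases, lay on the other side. Acad10 was the highest of the group with 74 reads in the AntiMir library and 48 in the Ctrl library (4.99 and 2.99 RPM, ratio 1.67, 1.14 to 2.45), inside the like-level range of −1.94 to 2.21. Acad11 had 20.0 and 15.7 RPM (ratio 1.27, 1.07 to 1.51). The electron transfer flavoprotein, which accepts electrons from these enzymes, had subunits with unequal ratios. Etfa had 53.5 and 56.5 RPM (0.946, 0.859 to 1.04) and Etfb 44.3 and 32.8 RPM (1.35, 1.20 to 1.52), a gap of 0.51 in log2 ratio. Per kilobase Etfa stood at 0.781 times Etfb in the AntiMir library and 1.11 times in the Ctrl library. Both genes lay inside their like-level ranges, −0.56 to 0.57 for Etfa and −0.56 to 0.66 for Etfb. Etfdh, which passes the electrons to ubiquinone, had 56.8 and 47.8 RPM (1.19, 1.08 to 1.31). In sum the 11 genes of this group differed by less than counting error, at 436 and 440 RPM.

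**Figure D3:**
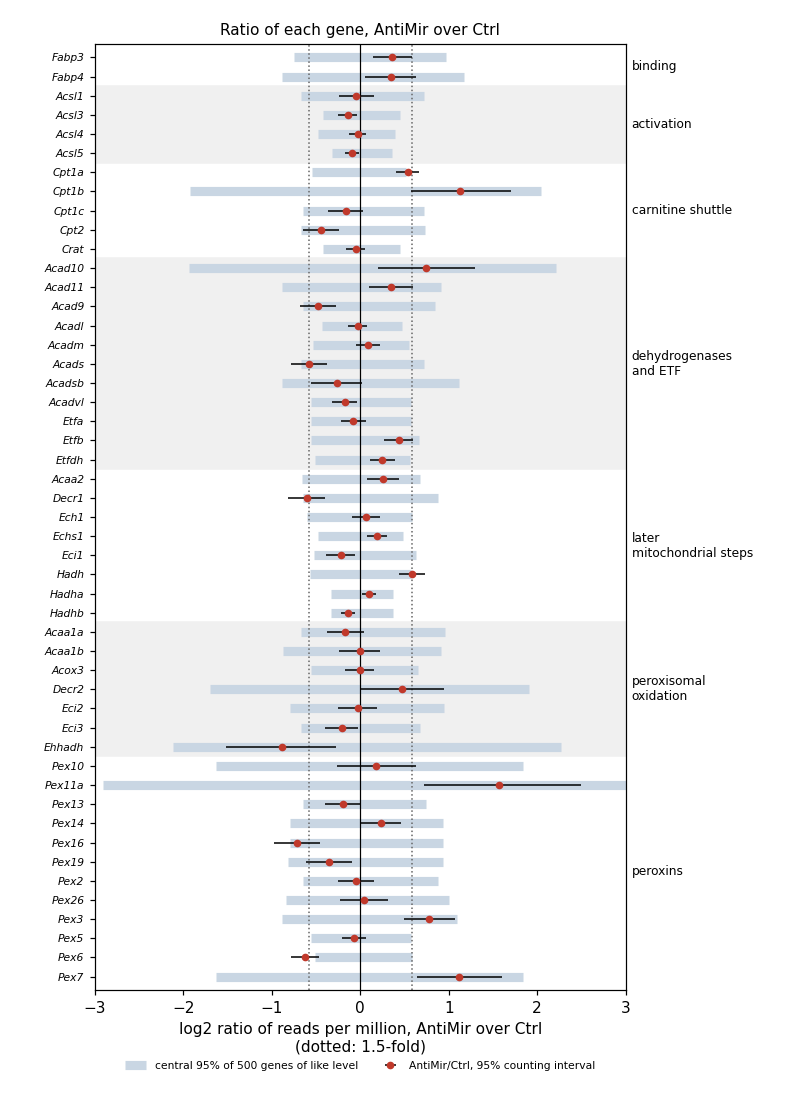
Log2 ratio of RPM, AntiMir over Ctrl, for 49 of the 53 members, with the 95% counting interval (black) and the like-level range (blue bar, computed with 0.1 RPM added and cut at the axis limit for Pex11a); dotted lines mark 1.5-fold. The Acsl genes cluster at 0, and Pex11a, Pex3 and Pex7 lie past 1.5-fold on the high side, Pex6 and Pex16 on the low side.

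The later mitochondrial steps were led by the trifunctional protein, whose subunits carry the hydratase, long-chain dehydrogenase and thiolase activities. Hadha, the alpha subunit, had 2552 reads (172 RPM) in the AntiMir library and 2581 (161 RPM) in the Ctrl library, a ratio of 1.07 (1.01 to 1.13). Hadhb, the beta subunit, had 2385 and 2836 reads (161 and 177 RPM), a ratio of 0.910 (0.861 to 0.961). The ratios fell on opposite sides of 1, and for each subunit the like-level range was −0.33 to 0.37 on the log2 scale, far wider than either difference. The deposited annotation places Hadha on an unplaced part of chromosome 6 with 2 copies, so its level is uncertain.

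The subunit genes lie head to head, which is why their shared upstream stretch is shown. In RefSeq build GRCr8 the Hadha promoter window, 250 bases before to 50 after the start at chr6:31907551-31907850 on the plus strand, shares 200 of its 300 bases, in capitals, with the window of Hadhb on the minus strand.
Hadha promoter: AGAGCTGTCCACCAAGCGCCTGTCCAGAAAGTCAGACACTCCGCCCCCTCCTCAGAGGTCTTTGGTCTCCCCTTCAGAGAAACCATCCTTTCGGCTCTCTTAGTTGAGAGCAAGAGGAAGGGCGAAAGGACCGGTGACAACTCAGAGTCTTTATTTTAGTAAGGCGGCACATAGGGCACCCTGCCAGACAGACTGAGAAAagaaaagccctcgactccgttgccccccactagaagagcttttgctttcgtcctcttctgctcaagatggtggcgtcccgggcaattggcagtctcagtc
The annotated starts are 301 bases apart, and the genes' log2 ratios differed by 0.23.

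Promoter windows were also searched on both strands for the letters AGGTCA, bound by many nuclear receptors, and for a direct repeat of those letters with any 1 base between the copies, a form that PPAR with RXR is known to bind. Of 47 members with a window, 9 held AGGTCA (19.1%, against 15.7% of all 27457 windows): Acad11, Acadvl, Echs1, Eci1, Eci2, Fabp1, Fabp7, Hadhb and Pex11g. Each full repeat also holds the single site. The repeat was in 0 of the 47 and in 0.0583% of all windows, which says only that these letters are not in these windows.

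Hadh, the hydroxyacyl-CoA dehydrogenase of medium and short chains, had the highest ratio of these later steps. It had 865 reads (58.4 RPM) in the AntiMir library and 625 (39.0 RPM) in the Ctrl library, a ratio of 1.498 (1.35 to 1.66). Its log2 ratio of 0.58, just under the 1.5-fold mark, lay at the upper edge of and outside the like-level range of −0.57 to 0.58. Decr1 (rn4, chromosome 5, 30492186 to 30520206), a reductase needed for unsaturated fatty acids, was the lowest, with 305 and 502 reads (20.6 and 31.3 RPM), a ratio of 0.657 (0.568 to 0.759) inside its range of −0.65 to 0.87. Between these extremes the hydratase Echs1 (85.8 and 75.5 RPM) and the thiolase Acaa2 (36.7 and 30.7 RPM) had ratios of 1.14 and 1.20, and the isomerases Ech1 and Eci1 1.04 and 0.859. The 8 genes summed to 617 and 601 RPM, a ratio of 1.03 (0.998 to 1.06), and 1.08 without Hadhb.

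In peroxisomal oxidation the 1 gene past 1.5-fold was a scarce one. Ehhadh (rn4, chromosome 11, 81474161 to 81507645), a bifunctional hydratase and dehydrogenase, had 35 reads (2.36 RPM) in the AntiMir library and 70 (4.37 RPM) in the Ctrl library, a ratio of 0.541 (0.350 to 0.823). It was the lowest member of all above the floor, at −0.86, inside the range of −2.11 to 2.26 of genes as scarce. Hsd17b4, the other bifunctional enzyme and no member here, had 120 and 113 RPM, so Ehhadh was the minor form in each library, also per kilobase.

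Most other peroxisomal enzymes described here were close to even. Acox3, of branched chains, had 38.8 and 39.0 RPM (ratio 0.996, 0.887 to 1.12). Decr2, the peroxisomal reductase, was the highest of the group by log2 ratio at 0.47, with only 90 and 70 reads (ratio 1.39, 1.01 to 1.93). The thiolase genes Acaa1a and Acaa1b had ratios of 0.890 and 0.994; they are annotated over the same stretch of rn4 on opposite strands, Acaa1b with 2 copies, so how reads were divided between them is uncertain. The neighbouring paralogs Eci2 and Eci3 had ratios of 0.978 and 0.865. Acox2, the bile acid oxidase of liver, had no reads. The group summed to 201 and 194 RPM (ratio 1.03, 0.984 to 1.09).

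**Figure D4:**
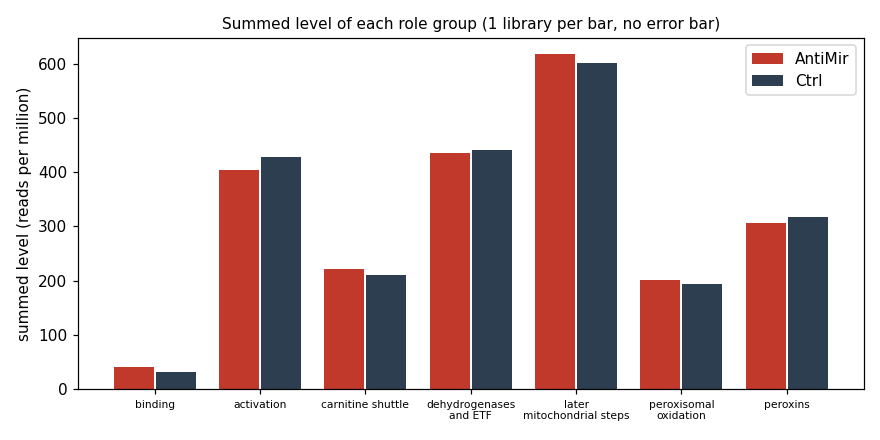
Summed level of each role group in RPM, AntiMir beside Ctrl; each bar is 1 library, so there is no error bar. The later mitochondrial steps stand at 617 and 601 RPM, activation at 403 and 428 RPM and fatty acid binding at 40.0 and 31.4 RPM. Each pair of bars differs little in height. Fatty acid binding, with the shortest bars, differs most in ratio, at 1.27.

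The peroxins held the widest spread of all role groups, with 4 of the 15 above the floor at least 1.5-fold higher and 3 lower. Over all genes above the floor the shares were 10.8% and 8.56%. Either way, the share was 53.2% at 1 to 10 RPM, where Pex7 and Pex11a lay. At 10 to 100 RPM, where Pex3, Pex6 and Pex16 lay, it was 11.4%. The peroxins' sum of 307 RPM in the AntiMir library and 317 RPM in the Ctrl library differed by less than counting error (ratio 0.969, 0.931 to 1.01). Of the import receptors, Pex5, which carries enzymes with the C-terminal signal, was the most abundant peroxin by reads, at 53.7 and 56.3 RPM (ratio 0.953, 0.865 to 1.05). Pex7 (rn4, chromosome 1, 15099265 to 15163734), which carries those with the N-terminal signal, had 112 and 56 reads (7.56 and 3.49 RPM), a ratio of 2.16 (1.56 to 3.04). Its log2 ratio of 1.09 lay inside the like-level range of −1.63 to 1.84. Per kilobase Pex7 stood at 0.319 times Pex5 in the AntiMir library and 0.140 times in the Ctrl library. Pex5l, a neuronal relative of Pex5, had no reads.

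Pex6 (rn4, chromosome 9, 10130561 to 10139807), an ATPase that helps pull the import receptor back out of the membrane, had 539 reads (36.4 RPM) in the AntiMir library and 898 (56.0 RPM) in the Ctrl library, so 0.649 times as much (0.583 to 0.723), and its log2 ratio of −0.62 lay below the range of −0.51 to 0.58. The annotation lists Pex6 with 2 copies, which leaves its count uncertain. Pex26, its anchor in the membrane, had 14.9 and 14.5 RPM (1.03, 0.850 to 1.24).

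Pex3, Pex16 and Pex19, which insert proteins into the peroxisomal membrane, also split. Pex3 (rn4, chromosome 1, 8316119 to 8357955) had 260 reads (17.5 RPM) in the AntiMir library and 164 (10.2 RPM) in the Ctrl library, a ratio of 1.72 (1.41 to 2.10). Pex16 (rn4, chromosome 3, 76769618 to 76779051) had 187 and 332 reads (12.6 and 20.7 RPM), a ratio of 0.609 (0.507 to 0.731). Neither left its like-level range, with Pex3 at 0.77 in −0.89 to 1.10 and Pex16 at −0.71 in −0.79 to 0.93. Per kilobase Pex3 stood at 0.865 times Pex16 in the AntiMir library and 0.307 times in the Ctrl library. Pex19 had 14.4 and 18.5 RPM (0.782, 0.653 to 0.936), but it lies within the span of Dcaf8 on the same strand, so its reads are uncertain.

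Pex2 and Pex10, ubiquitin ligase subunits of the import pore, had ratios of 0.967 (0.839 to 1.11) and 1.13 (0.830 to 1.55). The docking proteins Pex13 and Pex14 had ratios of 0.874 and 1.18.

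Pex11a (rn4, chromosome 1, 135513735 to 135520816), an inducible factor of peroxisome division, had the highest log2 ratio of all members above the floor, 1.48. It had 44 reads (2.97 RPM) in the AntiMir library and 16 (0.998 RPM) in the Ctrl library, a ratio of 2.98 (1.65 to 5.65), and its like-level range of −2.91 to 5.25 shows how widely genes so scarce differed between these libraries. Pex11g had 3 and 10 reads, with an interval of its ratio from 0.0574 to 1.26.

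Other genes of the pathway were read from lists drawn up by function. Nuclear receptors, coactivators and other listed regulators, such as Sirt3 and Tfam, had a median log2 ratio of −0.11 over 11 genes above the floor. None of the 11 passed 1.5-fold in either direction. Over all genes above the floor 19.4% did, and 11.4% of those at 10 to 100 RPM. Rxra, the partner receptor of the PPARs, was highest at 0.56 (59.8 RPM in the AntiMir library, 40.5 in the Ctrl library) and Lpin1 lowest at −0.45, with the corepressor Ncor1 most abundant at −0.13. Ppara had only 22 and 21 reads, and Ppargc1a, the coactivator PGC-1alpha, and Esrrg none in either library. Pparg had 23 reads in the AntiMir library and 5 in the Ctrl library, a mean just below the floor, so the count leaves it out. Its ratio was 4.98 (1.85 to 16.8), and its log2 ratio of 2.00 lay inside the like-level range of −4.43 to 4.45. Ppara, Pparg, Ppargc1a and Esrrg were chosen after their values were seen.

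Genes of fatty acid supply and known PPAR targets outside the set had a median of 0.13 over 23 genes. Of these, 3 were at least 1.5-fold higher (Acot9, Lipe and Slc27a3) and 3 lower (Acot2, Angptl4 and Slc22a5), against 10.8% and 8.56% of all genes. Lipe and the 3 lower genes lay at 1 to 10 RPM, where 53.2% of all genes passed 1.5-fold either way. With a floor of 10 RPM, 2 were higher and 0 lower. Lipe, the hormone-sensitive lipase, was highest with 39 reads in the AntiMir library and 19 in the Ctrl library. Angptl4, an inhibitor of lipoprotein lipase and a PPAR target, was lowest with 5.13 and 10.7 RPM, a ratio of 0.481 (0.362 to 0.634). Its log2 ratio of −1.04 lay inside the like-level range of −1.33 to 1.30. Ucp2, a mitochondrial carrier, was most abundant at 159 and 114 RPM (1.40, 1.31 to 1.49). Outside their like-level ranges lay 3 of the 23 genes, against 5.33% of all genes above the floor. All 3 were on the high side: Ucp2, Acot9 and Lpl (95.1 and 65.6 RPM, ratio 1.45, 1.34 to 1.57). The carnitine importer Slc22a5 had 5.80 and 11.98 RPM (0.485, 0.371 to 0.628) and the carnitine-acylcarnitine carrier Slc25a20, which works between Cpt1 and Cpt2, 45.4 and 62.1 RPM (0.731, 0.662 to 0.807). Both lay inside their like-level ranges, Slc22a5 at −1.03 in −1.32 to 1.26 and Slc25a20 at −0.45 in −0.51 to 0.57. The choice of this pair followed a look at the values. Pdk4, which spares glucose when fat is burned, had 39 and 47 reads.

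Other mitochondrial acyl-CoA enzymes had a median of −0.05 over 14 genes, with 1 at least 1.5-fold higher, Auh at 0.62, and 0 lower. Over all genes above the floor 10.8% were higher and 8.56% lower by that fold. All 14 enzymes remained at a floor of 10 RPM, and from 10 to 100 RPM only 11.4% of genes passed 1.5-fold either way. Hsd17b10 and Gcdh were lowest at −0.41 each, and Oxct1 was most abundant at 158 and 152 RPM. Other peroxisomal genes had a median of 0.04 over 36, with Pxmp2 highest at 0.68 on 41 and 27 reads, and Acot8 and Nudt7 past 1.5-fold on the low side. All of these lay at 1 to 10 RPM, where 53.2% of all genes passed 1.5-fold. With a floor of 10 RPM, 0 of the list did in either direction. Outside their like-level ranges lay 2 of the 36, against 5.33% of all genes above the floor. These were Prdx5 and Xdh, both just on the high side (ratios 1.29 and 1.30). Acot8, a peroxisomal thioesterase, had 3.51 and 8.48 RPM (0.414, 0.295 to 0.573), while the most abundant, the deubiquitinase gene Usp9x, stood at −0.10 and the catalase gene Cat at 110 and 102 RPM. Fatty acid synthesis and elongation genes had a median of −0.01 over 10 with none past 1.5-fold, from Elovl6 at −0.33 to Fads2 at 0.51, with the desaturase gene Scd most abundant at 1290 and 1386 RPM. These 10 genes also remained at a floor of 10 RPM. Acly, Me1, Scd and Srebf1 lay at 100 RPM or above, where only 0.948% of all genes passed 1.5-fold. The others lay at 10 to 100 RPM, where 11.4% did, against 19.4% of all genes above the floor. Against 0.03 over all genes, the medians of the pathway lists ran from −0.11 for the nuclear receptors, coactivators and other regulators to 0.13 for the supply genes.

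**Figure D5:**
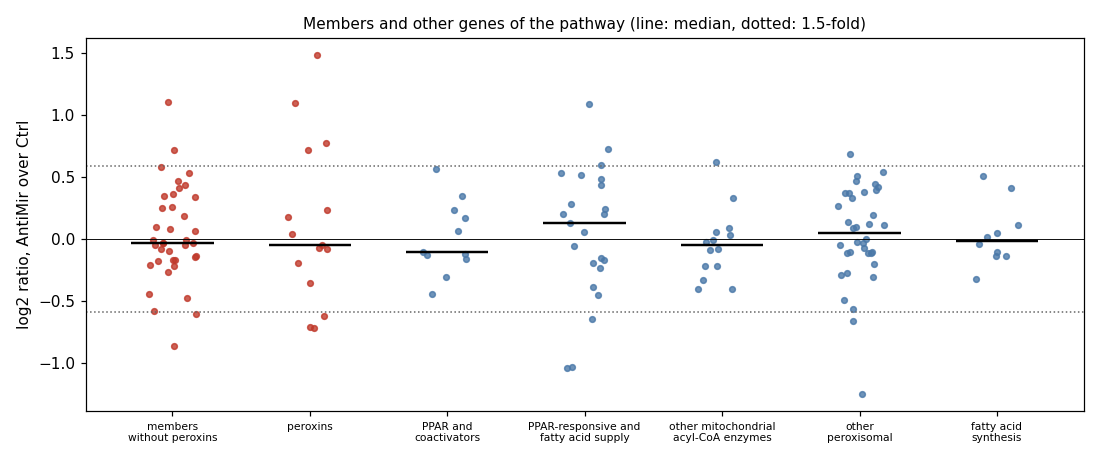
Log2 ratio, AntiMir over Ctrl, of the members (red) and of the other pathway lists (blue); each point is a gene above 1 RPM, black lines are medians and dotted lines 1.5-fold. The medians lie between −0.11 and 0.13, and points past 1.5-fold occur on both sides among the members, the fatty acid supply genes and the other peroxisomal genes.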

How the data were processed

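Per the labels' protocols, libraries came from a strand-specific TruSeq kit. Per the file headers, exon reads of rn4 RefSeq genes were summed with HOMER from the opposite strand, with a single transcript kept for each gene. Per the submitters' processing notes, the tools include CASAVA 1.8.2 and STAR 2.2.0c, with no role stated. The deposited signal is a scaled read count whose columns sum to 15423812 (AntiMir) and 15423813 (Ctrl); how it was scaled is not stated in the labels. Whole reads were recovered by dividing by the signal of 1 read, 1.04 and 0.962: of values up to 400 reads, 100% and 99.8% were whole within 0.005 units. Analyses used Python 3.11.15, NumPy 2.4.6, pandas 2.3.3 and SciPy 1.17.1. No across-sample test is possible with 1 library per group. Functions were tested on simulated data. An exact binomial count test on recovered reads (Benjamini-Hochberg, 0.05), added after the data were seen, compares libraries, not conditions; it called 6018 of 10365 genes and 32 of the 53 members. The design file asked for full values of members past 1.5-fold and of the highest, lowest and 2 most abundant per role. Members and lists were chosen with earlier results of these data known. Peroxisomal targeting signals were not analysed here, as no protein table was used. Values of 4 members are not reported here, though counts, medians and sums include them.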

Additional observations from a re-analysis of the deposited data

How the results depend on the processing

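The median log2 ratio of the members stayed between −0.05 and −0.02 under every alternative run (no floor, a floor of 10 RPM, median-of-ratios scaling, 1 RPM added, and leaving out Acaa1a, Acaa1b, Hadha, Eci2, Eci3, Pex6 and Pex19, which have an overlapping gene, 2 annotated copies or a neighbouring paralog). The number at least 1.5-fold higher, 6, was 2 with a floor of 10 RPM, 3 at 2-fold, 3 outside the like-level range and 17 by the count test. The number lower, 5, was 3 with a floor of 10 RPM, 0 at 2-fold, 1 outside the like-level range and 15 by the count test. It was 4 with 1 RPM added, and 6 with no floor or under median-of-ratios scaling. Leaving out the uncertain members gave 4 and removed Pex6, the only member below its like-level range. The number higher stayed at 6 in those runs. The higher floor and the 2-fold mark admit fewer genes by construction, and the count test takes counting error alone. Group sum ratios moved by less than their counting intervals under median-of-ratios scaling; without its most abundant gene the ratio was 1.12 for the carnitine shuttle (without Crat), 1.08 for the later mitochondrial steps (without Hadhb) and 0.944 for peroxisomal oxidation. Decr1 fell short of 1.5-fold with 1 RPM added (−0.58), and Acads passed it under median-of-ratios scaling (−0.61). No paired analysis was possible because each group has 1 library. Depth limits the scarce members: below 10 RPM, the central 95% of ratios of like-level genes reached past 2-fold in both directions, with no replicate to judge them.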
